A study of Mus musculus with 2 samples.

Results

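The antioxidant and redox defence genes described here are 35 genes of the NRF2 pathway and of the glutathione, thioredoxin, peroxiredoxin, superoxide and pentose phosphate systems. They were chosen by name from the gene rows of the deposited single-cell table, and all 35 were found among its 17232 genes. The cells were tumor-infiltrating immune cells (TIIs), sorted as live CD45.2+ cells from B16-OVA tumors, a melanoma line that carries ovalbumin, 14 days after subcutaneous inoculation. One group of hosts was Maoa WT mice, and the other was Maoa KO mice, which carry a hypomorphic Maoa mutation in the germ line, so that it is not limited to immune cells. Hosts were young adult female mice on a C57BL/6J background, 10 tumors were pooled for each group, and 1 library was made per genotype.

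MAO-A breaks down monoamines in mitochondria and releases hydrogen peroxide. Cells sense such oxidants mainly through KEAP1, which holds the transcription factor NRF2 (encoded by Nfe2l2) in the cytosol and sends it for degradation. When KEAP1 is oxidised, NRF2 enters the nucleus and binds antioxidant response elements in front of genes for glutathione synthesis, thioredoxin reduction, heme breakdown, iron storage and NADPH supply. In macrophages the same genes are also known for handling heme and iron from engulfed cells, through Hmox1 and ferritin.

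Each library gave between 2392 and 2630 cells and between 23702018 and 28801253 UMIs (unique molecular identifiers, each 1 captured mRNA molecule). The median cell held 9887.5 UMIs in the library labelled WT and 6945.5 in the library labelled KO. Clusters named from marker genes gave 2152 T cells, 1839 TAM/Mono cells (tumor-associated macrophages and monocytes), 457 NK cells, 425 dendritic cells (DCs), 118 plasmacytoid DCs (pDCs) and 31 B cells. Maoa itself was not lower in the library labelled KO: it had 7 UMIs in the library labelled WT and 15 in the other, or 0.243 and 0.633 CPM (counts per 1000000 UMIs), with an interval that just held 0 (log2 1.33, -0.0010 to 2.92). In TAM/Mono cells it had 2 and 9 UMIs (log2 2.28, 0.25 to 5.77), against the labels. Reads from the mutant allele and crossed library labels cannot be told apart here. The 2 libraries are therefore called by their labels throughout, and a direction given between them is one between labelled libraries. The libraries shared 13 barcode sequences, and cells with UMIs of both T cell and myeloid genes made up 21.6% of the library labelled WT and 11.8% of the other. With 1 library per genotype no test between genotypes was possible. Intervals are 95% and cover counting error only, so a ratio whose interval leaves out 0 on the log2 scale differs between these libraries, not between genotypes. Levels are CPM of the summed UMIs of a class, and they were not divided by gene length because the kit counts 1 molecule once at its 3′ end.

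Short promoter stretches of 6 members are shown because NRF2 is known to bind antioxidant response elements, and these stretches hold the letters of its core. The core of the antioxidant response element, TGACNNNGC on either strand, was looked for between 250 bases before and 50 bases after each RefSeq start on GRCm38.p6. A window was at hand for 31 of the 35 members, and 9 of the 31 held the core (29.0%), against 3781 of 27025 genes with a window (13.99%). Each stretch is printed 5′ to 3′ on the strand that carries the core, with the core in capitals.
Gclm: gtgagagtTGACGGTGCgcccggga
Srxn1: tctcactcTGACCTAGCtgcccact
Prdx1: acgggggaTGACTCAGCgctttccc
Txnrd1: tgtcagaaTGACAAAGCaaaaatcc
Mgst1: ccgcctccTGACCGTGCcaagcccc
Nfe2l2: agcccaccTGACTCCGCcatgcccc
These lie at chr3:122245415-122245439 for Gclm (centre at -130 from the start), chr2:152105544-152105568 for Srxn1 (+32), chr4:116685458-116685482 for Prdx1 (-129), chr10:82859106-82859130 for Txnrd1 (-88), chr6:138140463-138140487 for Mgst1 (-52) and chr2:75704887-75704911 for Nfe2l2 (-236). The core is on the gene's own strand in Nfe2l2 and on the opposite strand in the other 5. The windows of G6pdx, Pgd and Sod1 also held it, and those of Fth1, Slc7a11 and Nqo1 did not. No window was at hand for Hmox1, Gclc, Gsr and Prdx6. Txnrd1 held the core in 1 of 3 windows, and Mgst1 and Pgd in 1 of 2, with places counted from the start of that window. Cores outside the windows were not looked for. As the results show, promoters with the core belong both to members that were lower in the library labelled KO (Gclm, Srxn1) and to members that were not (Mgst1, Nfe2l2). A match of letters is a description and not a binding site.

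Over both libraries, most of the antioxidant genes had their highest level in the TAM/Mono class. Of the 35, 24 had their highest level there, 3 in DCs (Cat, Taldo1 and Tkt), 3 in pDCs (Keap1, Txn2 and Sod1), 2 in NK cells (Gpx4 and Prdx3), 2 in T cells (Gclc and Txn1) and 1 in B cells (Gstp1). With at least 100 UMIs over all cells, which Nqo1 did not reach, 23 of 34 members (67.6%) were highest in TAM/Mono cells, and so were 18.1% of all 10487 genes. For many the lead was small: Prdx2, Gsto1 and Gpx1 were 1.02-fold, 1.03-fold and 1.10-fold over the next class, and 4 of the 35 (Hmox1, Mgst1, Slc7a11 and Nqo1) were at least 4-fold over it. Such small leads need not hold in each library. In the library labelled WT, Prdx2 was at 234 CPM in TAM/Mono cells and 265.5 in DCs, and Gsto1 at 73.5 and, in T cells, 74.3. Over all cells, the most abundant member was Fth1, the ferritin heavy chain that stores iron, at 9987 CPM. It was followed by Prdx1 at 841 CPM, Txn1 at 823, Gpx1 at 764 and Hmox1 at 591. Nqo1, a quinone reductase much used as an NRF2 readout, had 10 UMIs in all 5022 cells and could not be compared between libraries at this depth.

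Hmox1, heme oxygenase that splits heme into iron, carbon monoxide and biliverdin, had the largest fold of the 35 between TAM/Mono cells and the next class. It stood at 1381 CPM there, 54.1 in T cells, 37.7 in pDCs, 30.5 in NK cells, 27.7 in B cells and 26.1 in DCs. Its level in TAM/Mono cells was 25.5-fold over that of T cells, the next class, while the 5 other classes lay close together.
Mgst1, a membrane-bound glutathione transferase, was at 130 CPM in TAM/Mono cells, 14.2-fold over pDCs (9.14 CPM), and at 3.34 in NK cells, 2.45 in T cells and 1.98 in DCs. No Mgst1 UMI was seen in the 31 B cells.
Slc7a11, the transporter that imports cystine for glutathione synthesis, was at 76.1 CPM in TAM/Mono cells, 8.86-fold over DCs (8.59 CPM). It had 2.78 CPM in T cells, 2.28 in pDCs, 1.67 in NK cells and no UMI in B cells. Nqo1 was 4.04-fold higher in TAM/Mono cells (0.374 CPM) than in T cells (0.0925 CPM), on 8 and 2 UMIs.
Fth1 reached 20850 CPM in TAM/Mono cells, 2.99-fold over pDCs at 6969, against 2044 in T cells and 1789 in NK cells.

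The regulators were spread more evenly than these genes. Nfe2l2 was highest in TAM/Mono cells at 129 CPM, then at 62.4 in B cells, 60.5 in pDCs, 50.04 in DCs, 26.3 in NK cells and 16.6 in T cells. Keap1 kept to 43.3 to 60.5 CPM in the 5 larger classes and was at 20.8 in the 31 B cells. Levels of B cells and pDCs rest on few cells and UMIs, and their order beside DCs is within counting error for Nfe2l2.

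**Figure D1:**
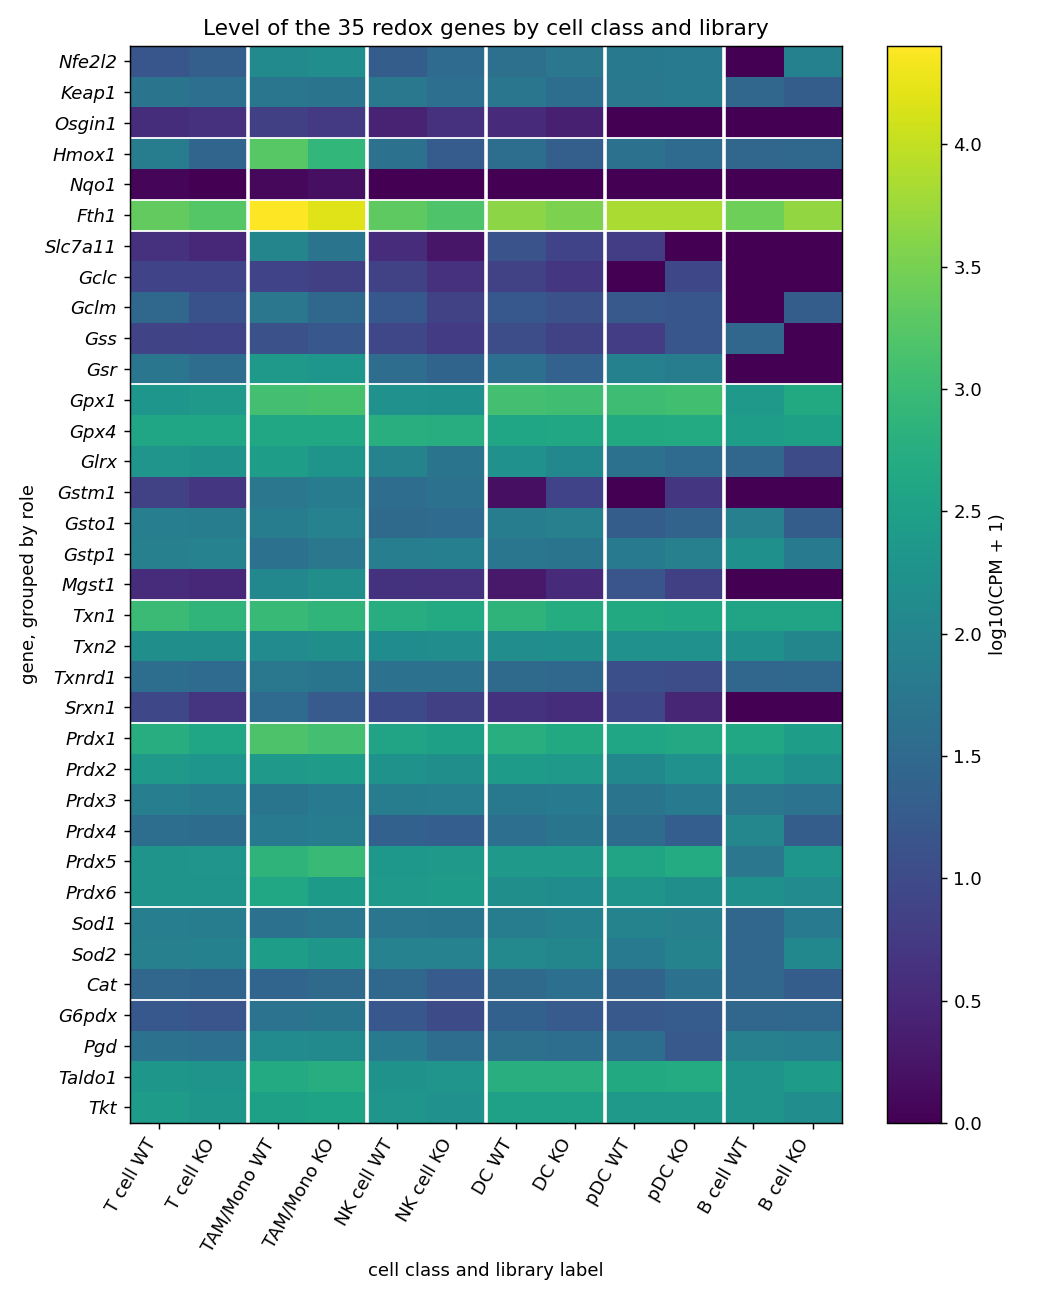
Level of each of the 35 genes (rows) in each immune class of each library (columns), as log10 of CPM plus 1, with lighter colour for a higher level. The Fth1 row is the most abundant in the TAM/Mono columns (25230 and 15250 CPM), and Hmox1, Slc7a11 and Mgst1 stand out in the TAM/Mono columns against the rest of their rows.

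The main comparison asked how these genes differed between the libraries within TAM/Mono cells, 977 in the library labelled WT and 862 in the library labelled KO. Hmox1, Fth1, Slc7a11, Gclm, Srxn1 and Prdx6 were each at least 1.5-fold lower in the library labelled KO, and no member was 1.5-fold higher. That is 6 of the 34 members with at least 100 UMIs, where 4.91% of all 8379 genes tested were as much lower and 3.99% as much higher. The median over the 34 members was a log2 ratio (KO-labelled over WT-labelled) of 0.11, against 0.05 over all genes tested. With both libraries set to the same mix of clusters, as described further on, these medians were -0.06 and -0.01. By counting error alone 17 members had an interval above 0, as did 22.2% of all genes tested, 12 had one below 0, as did 15.8%, and 5 held 0. An interval narrows with more UMIs, so these counts also follow the members' abundance. Every member but Nqo1 had 100 UMIs, so the minimum left out that gene alone.

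Hmox1 had 21842 UMIs, or 1817 CPM, in TAM/Mono cells of the library labelled WT and 7733 UMIs, or 823 CPM, in those of the library labelled KO. Its log2 ratio was -1.14 (-1.18 to -1.11), the lowest among the members. The UMIs were not evenly spread over cells: the 10 highest cells held 14.2% of them in the library labelled WT and 31.8% in the other. The gene lies at 75093621 to 75100589 on chromosome 8 (mm10).
Fth1, its partner in the sense that ferritin stores the iron that heme oxygenase frees, had 25230 and 15250 CPM, a log2 ratio of -0.73 (-0.74 to -0.72). It lies at 9980598 to 9985098 on chromosome 19. Its many processed copies in the genome make the assignment of reads between copies uncertain.

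The genes of glutathione synthesis were split. Slc7a11 (chromosome 3, 49892526 to 50443614) was at 98.0 CPM in the library labelled WT and 48.1 in the library labelled KO, on 1178 and 452 UMIs (log2 -1.03, -1.19 to -0.87). Gclm (chromosome 3, 122245557 to 122270732), the modifier subunit of the enzyme that makes gamma-glutamylcysteine, was at 55.0 and 28.0 CPM, a log2 ratio of -0.97 (-1.19 to -0.77). The catalytic subunit Gclc was low in both libraries, at 6.57 and 5.96 CPM, and its interval held 0 (log2 -0.14, -0.66 to 0.37). Thus the transporter and the modifier subunit were lower in the library labelled KO. The catalytic subunit, on 79 and 56 UMIs, did not differ detectably, but its interval also held 1.5-fold lower. Gss, which joins glycine to complete glutathione, was at 11.5 and 14.8 CPM (log2 0.37), and Gsr, which reduces oxidised glutathione, was at 228 and 206 (log2 -0.14, -0.23 to -0.06).

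In the thioredoxin and peroxiredoxin systems, the members past 1.5-fold were Srxn1 and Prdx6. Srxn1 (chromosome 2, 152105516 to 152111376), sulfiredoxin that restores over-oxidised peroxiredoxins, had 411 and 161 UMIs, or 34.2 and 17.1 CPM, a log2 ratio of -0.99 (-1.27 to -0.73). Prdx6 (chromosome 1, 161240112 to 161251219), the 1-Cys peroxiredoxin that also acts on oxidised phospholipids, was at 439 and 251 CPM, a log2 ratio of -0.81 (-0.88 to -0.74). A near-identical copy, Prdx6b, makes its level uncertain where reads could be split.
Prdx1, a cytosolic peroxiredoxin, and Txn1, the cytosolic thioredoxin, were lower by less, at 1497 and 1199 CPM (log2 -0.32) and at 918 and 754 CPM (log2 -0.29). Txnrd1, which reduces thioredoxin, had a log2 ratio of -0.20. Other members were higher in the library labelled KO: Prdx5 was at 739 and 937 CPM (log2 0.34, 0.30 to 0.38), and the mitochondrial Prdx3 and Txn2, the secretory-pathway Prdx4 and the cytosolic Prdx2 lay between 0.16 and 0.26. None of these reached 1.5-fold. Within the 5 TAM/Mono clusters described further on, intervals lay above 0 in 5 for Prdx5, in 1 for Prdx2 and for Prdx3, and in none for Txn2 and Prdx4.

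Among genes that use glutathione, Glrx, glutaredoxin, was just short of the threshold at 277 and 185 CPM (log2 -0.58, where 1.5-fold is 0.585). It was past it under 6 of the alternatives, with gated classes, without cells holding a melanoma or an erythroid UMI, with cells of equal weight, with thinning and with centring on the median of all genes. The nearest member past it was Fth1. Over the class, the transferases were higher in the library labelled KO, Gstm1 at 53.8 and 73.9 CPM (log2 0.46, 0.30 to 0.61), Mgst1 at 114 and 150.5 (log2 0.40, 0.30 to 0.51), and Gstp1 and Gsto1 at log2 0.29 and 0.28. Within clusters, intervals lay above 0 in 2 of 5 for Gstm1 and for Gsto1 and in 1 of 5 for Gstp1, and the log2 ratio of Gsto1 was below 0 in clusters 0, 1 and 3 (-0.24 to -0.16, each interval holding 0). Gstm1 and Gstp1 have close relatives in the genome, so their counts may be shared with them. The glutathione peroxidases Gpx1 and Gpx4, the second of which protects membrane lipids, had log2 ratios of 0.12 and 0.09.

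Superoxide and hydrogen peroxide enzymes also differed in direction. Sod2, the mitochondrial superoxide dismutase, was at 294 CPM in the library labelled WT and 215 in the library labelled KO (log2 -0.45), whereas the cytosolic Sod1 (log2 0.23) and catalase, Cat (log2 0.29), were higher in the latter. Within the 5 TAM/Mono clusters, intervals lay below 0 in 2 for Sod2 and held 0 in all 5 for Sod1 and for Cat. The pentose phosphate genes, which supply NADPH, had log2 ratios of -0.04 for Pgd, 0.12 for G6pdx, 0.19 for Tkt and 0.22 for Taldo1. None of the 4 neared 1.5-fold.

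None of the 3 regulators was past 1.5-fold. Nfe2l2 (chromosome 2, 75675513 to 75704641) was at 121 CPM in the library labelled WT and 140 in the library labelled KO (log2 0.22, 0.11 to 0.32). Keap1 (chromosome 9, 21229730 to 21239361) was at 52.3 and 47.9 CPM, with an interval that held 0 (log2 -0.13, -0.31 to 0.05). Osgin1, an NRF2-induced growth inhibitor, had 70 and 43 UMIs and an interval that held 0 and also 1.5-fold lower (log2 -0.34, -0.93 to 0.22). With each cell given equal weight Osgin1 was past 1.5-fold and lower. The protein and its place in the cell were not measured, and neither was NRF2 activity.

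**Figure D2:**
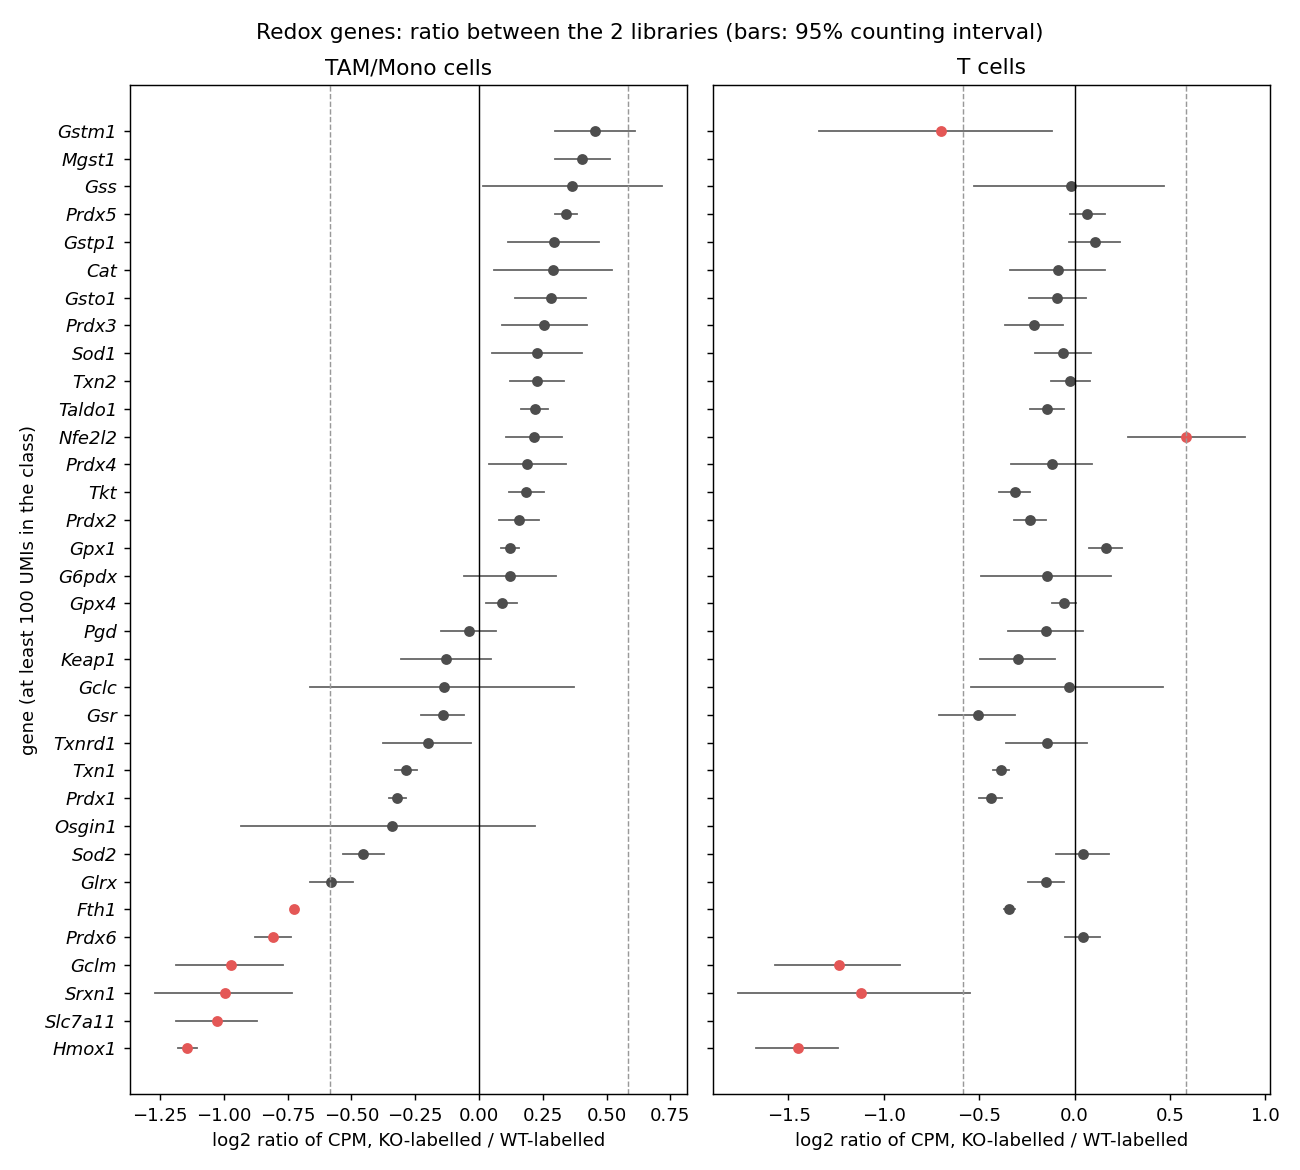
Log2 ratio of CPM, library labelled KO over library labelled WT, in TAM/Mono cells and in T cells for members with at least 100 UMIs in the class, with 95% counting intervals as bars and dashed lines at 1.5-fold. Red points are past 1.5-fold: Hmox1, Fth1, Slc7a11, Gclm, Srxn1 and Prdx6 in TAM/Mono cells, all to the left of 0, and Hmox1, Gclm, Srxn1, Gstm1 (left) and Nfe2l2 (right) in T cells.

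RNA of some other cell types differed between the libraries in the same class. The 12 neutrophil genes all had UMIs in TAM/Mono cells of both libraries and summed to 635 CPM in the library labelled WT and 231 in the library labelled KO. Cells with RNA of both T cells and myeloid cells were 15.2% and 8.47% of the class, and the 8 melanoma genes, all with UMIs, summed to 32.0 and 21.6 CPM. The 12 T cell genes measured summed to 355 and 215 CPM and the 10 cycling genes to 299 and 428, while the erythroid genes were at 19.05 and 19.15. The 6 fibroblast or endothelial genes measured, of which 3 and 5 had UMIs, summed to 22.05 and 12.66 CPM. With the mixed cells left out, 6 members were again past 1.5-fold and lower, with Hmox1 at a log2 ratio of -1.26 and Prdx6 at -0.93. With cells that held any melanoma UMI left out, the same 6 and Glrx were past 1.5-fold and lower, with Hmox1 at -1.37, Gclm at -1.43 and Prdx6 at -0.81. The part of neutrophil RNA in the ratios was not tested.

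The TAM/Mono class was re-clustered without the members to see where in it they were expressed. Cluster 0 (leading genes Cxcl3, Inhba, Mmp12 and Vegfa among others) held 42.5% of the class in the library labelled WT and 21.2% in the library labelled KO. It had 6 of 13 monocyte markers. Cluster 1 (H2-DMb1, Fdps, Gbp2, with 7 of 13 monocyte markers) held 25.1% and 28.5%, cluster 2 (Serpinb10, Adgre4, Hp, Ace, with 11 of 13 monocyte markers) 19.3% and 34.1%, and cluster 3 (Gas6, Fcrls, Vcam1 and cell cycle genes, with 13 of 14 TAM markers) 6.65% and 11.8%. Cluster 4, with 63 and 37 cells, was led by T cell genes such as Foxp3 and Ikzf2 and so is mixed. The largest cluster was thus cluster 0 in the library labelled WT and cluster 2 in the library labelled KO.

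The clusters in which the members were highest differed. Over both libraries, 9 members had their highest level in cluster 0 (Hmox1, Nqo1, Fth1, Slc7a11, Gclm, Srxn1, Prdx1, Prdx6 and Sod2), and 15 in cluster 2, among them Nfe2l2, Gsr, Gpx1, Gpx4, Gstm1, Gsto1, Gstp1, Mgst1, Prdx2, Prdx5, G6pdx, Pgd and Taldo1. Another 8 were highest in cluster 3, Txn2 and Tkt in cluster 1, and Glrx in the mixed cluster 4. Within each library taken alone, 7 of the 9 were again highest in cluster 0 (not Prdx1 and Sod2) and 9 of the 15 in cluster 2 (not Osgin1, Gpx4, Prdx2, Prdx5, G6pdx and Pgd). With at least 100 UMIs in the class, cluster 0 was the highest for 23.5% of members and 12.9% of all 8379 genes, cluster 2 for 44.1% and 19.8%, and cluster 3 for 23.5% and 34.5%. All 6 members that were 1.5-fold lower in the class are among the 9 of cluster 0, the cluster that was larger in the library labelled WT. That depends on the clustering: among the 15 clusters of all cells, Hmox1, Fth1, Slc7a11 and Prdx6 were highest in the cluster led by Cxcl3 and Inhba, but Gclm and Srxn1 in the one led by Gas6 and Ccl8.

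Within clusters the lower level of Hmox1 in the library labelled KO was seen in each of the 5. In cluster 0 it was at 3615 CPM in the library labelled WT and 2157 in the library labelled KO (log2 -0.74). In cluster 1 the levels were 512 and 267 (log2 -0.94), and in cluster 2 they were 465 and 155 (log2 -1.58). In the TAM-like cluster 3 they were 1396 and 1255 (log2 -0.15), and in cluster 4, 839 and 536 (log2 -0.64). The ratio was therefore widest in cluster 2, where the level was lowest, and narrowest in cluster 3.
Gclm went from 83.7 to 52.2 CPM in cluster 0 (log2 -0.68), 17.9 to 11.2 in cluster 1 (log2 -0.67), 36.7 to 12.98 in cluster 2 (log2 -1.48), 77.2 to 47.1 in cluster 3 (log2 -0.71) and 48.2 to 25.4 in cluster 4 (log2 -0.88), always from the library labelled WT to the other. The interval lay below 0 in 4 of the 5 clusters. Srxn1 also had 4 intervals below 0, with log2 ratios of -0.40 in cluster 0, -0.55 in cluster 1, -1.19 in clusters 2 and 3 and -1.74 in cluster 4, the last on 32 and 4 UMIs.

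The difference in Fth1 varied by cluster, and that in Prdx6 was smaller in each cluster than in the class. Fth1 was at 46300 and 40510 CPM in cluster 0 (log2 -0.19) and 19600 and 17470 in cluster 3 (log2 -0.17). In cluster 1 it was at 10720 and 7036 (log2 -0.61), in cluster 2 at 7994 and 4271 (log2 -0.90), and in cluster 4 it was slightly higher in the library labelled KO (log2 0.12). Prdx6 was at 788 and 569 CPM in cluster 0 (log2 -0.47) and had intervals below 0 in clusters 0, 1 and 3. Slc7a11 was at 172 and 87.9 CPM in cluster 0 (log2 -0.96), 48.8 and 43.5 in cluster 1 and 81.5 and 61.9 in cluster 2 (log2 -0.40), with intervals below 0 in clusters 0 and 2. In cluster 3 it was almost absent, at 10 and 13 UMIs.

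**Figure D3:**
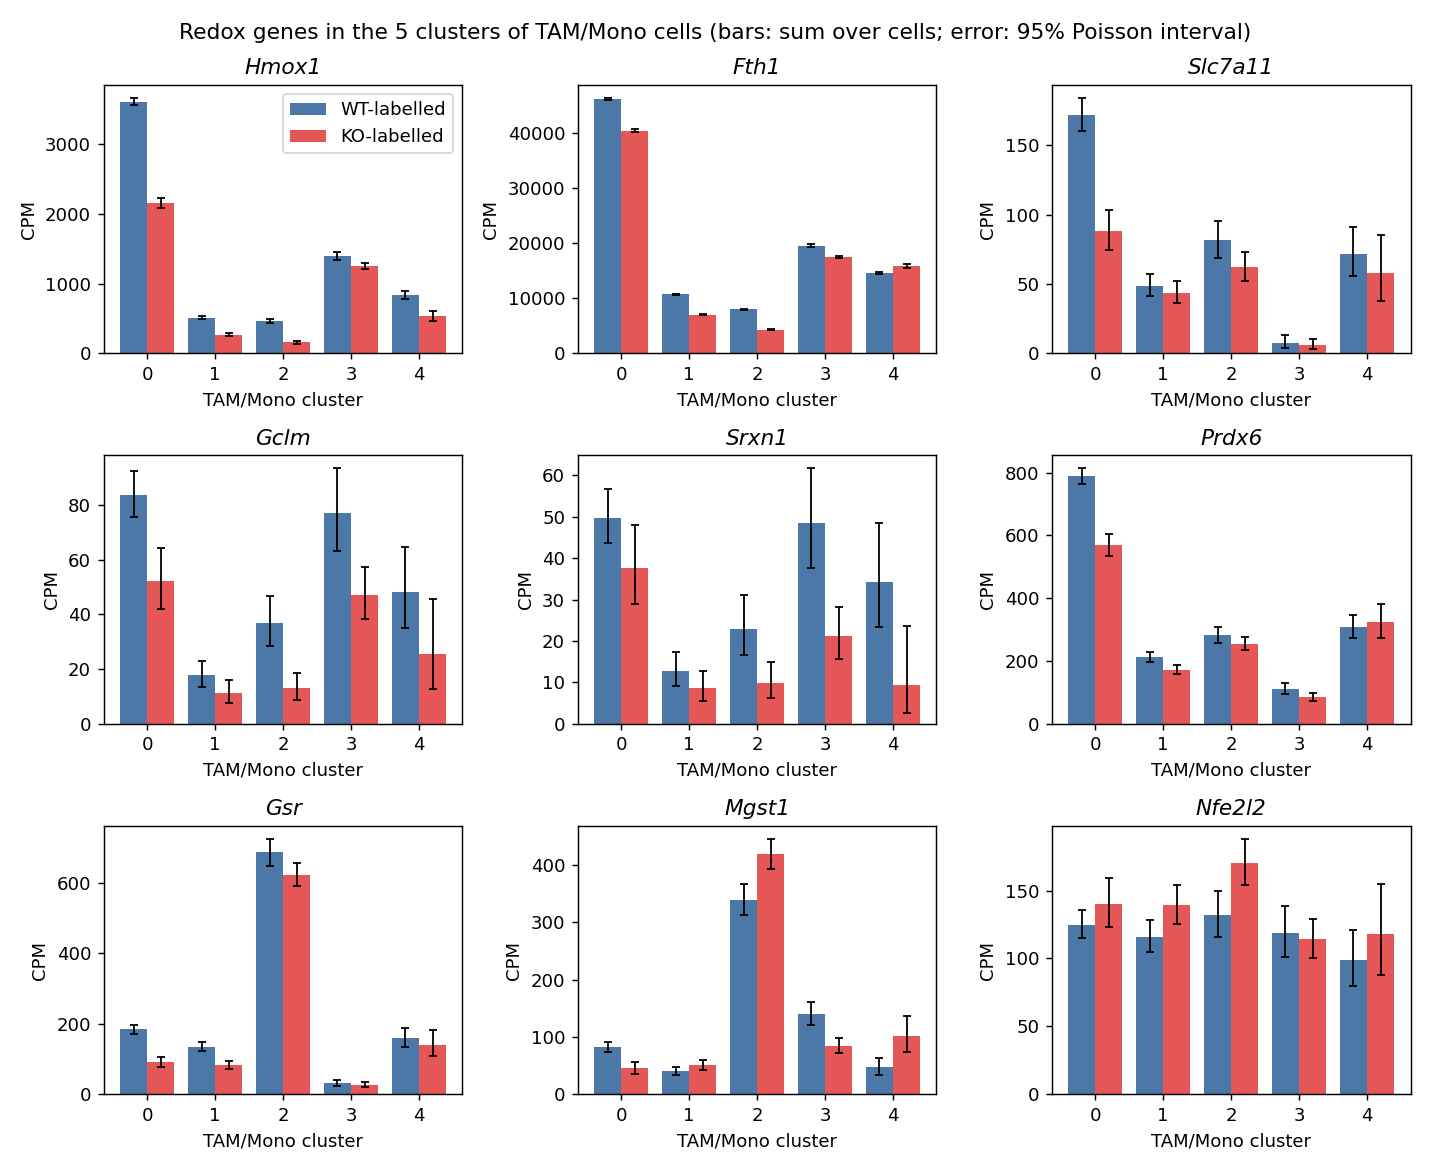
CPM of 9 members in the 5 TAM/Mono clusters, as bars from 0 for the library labelled WT and the library labelled KO, with 95% Poisson intervals. Hmox1, Fth1, Slc7a11 and Prdx6 have their tallest bars in cluster 0, and Gsr and Mgst1 in cluster 2. The Hmox1 bar of the library labelled WT is the taller in each cluster.

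The value for the whole class hides differences in the ratio between clusters, in size for Gsr and in direction for Mgst1. Gsr was at 184 and 90.8 CPM in cluster 0 (log2 -1.02) and 135 and 82.7 in cluster 1 (log2 -0.70), but at 686 and 622 in cluster 2 (log2 -0.14), which holds more of the cells of the library labelled KO. Mgst1 was lower in the library labelled KO in cluster 0 (81.8 and 45.1 CPM, log2 -0.85) and cluster 3 (140 and 84.4, log2 -0.73), and higher in cluster 2 (340 and 419, log2 0.30) and cluster 4 (47.1 and 102, log2 1.11). Prdx1 and Glrx had intervals below 0 in all 5 clusters, from -0.47 to -0.13 and from -0.71 to -0.39, and Prdx5 had intervals above 0 in all 5, from 0.20 to 0.60. Nfe2l2 had intervals above 0 in clusters 1 (116 and 139 CPM) and 2 (132 and 171 CPM), and Keap1 held 0 in each.

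To set the mix of clusters aside, each library was given the same share of each cluster. The log2 ratio in TAM/Mono cells then was -0.69 for Hmox1, -0.79 for Gclm, -0.75 for Srxn1 and -0.65 for Slc7a11, all still past 1.5-fold. Fth1 was then at -0.26 and Prdx6 at -0.36, neither past it, and Mgst1 was at 0.02 in place of 0.40. With this mix, 3.8% of all genes tested were as much lower. Neutrophil RNA also differed within clusters, from 946 CPM in the library labelled WT to 142 in the library labelled KO in cluster 0, from 354 to 73.7 in cluster 1, from 940 to 689 in cluster 2, from 157 to 31.8 in cluster 3 and from 198 to 141 in cluster 4. Its part in the ratios within clusters was not tested.

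The share of TAM/Mono cells with a UMI gave the same direction for these genes. Here each cell was thinned at random to 5800 UMIs, and this kept 897 and 760 cells and left out 80 and 102. Hmox1 was seen in 76.9% of the cells of the library labelled WT and 57.2% of those of the library labelled KO. The shares were 29.7% and 21.2% for Slc7a11, 18.5% and 8.82% for Gclm, 11.4% and 7.63% for Srxn1, and 74.0% and 62.8% for Prdx6. Fth1 was in 100% of cells in both libraries, with a median of 85 and 33 UMIs per thinned cell. The other direction held for Mgst1 (34.7% and 39.5%), Nfe2l2 (47.7% and 54.0%) and Gstm1 (21.5% and 31.3%), while Keap1 was at 23.0% and 22.5%.

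**Figure D4:**
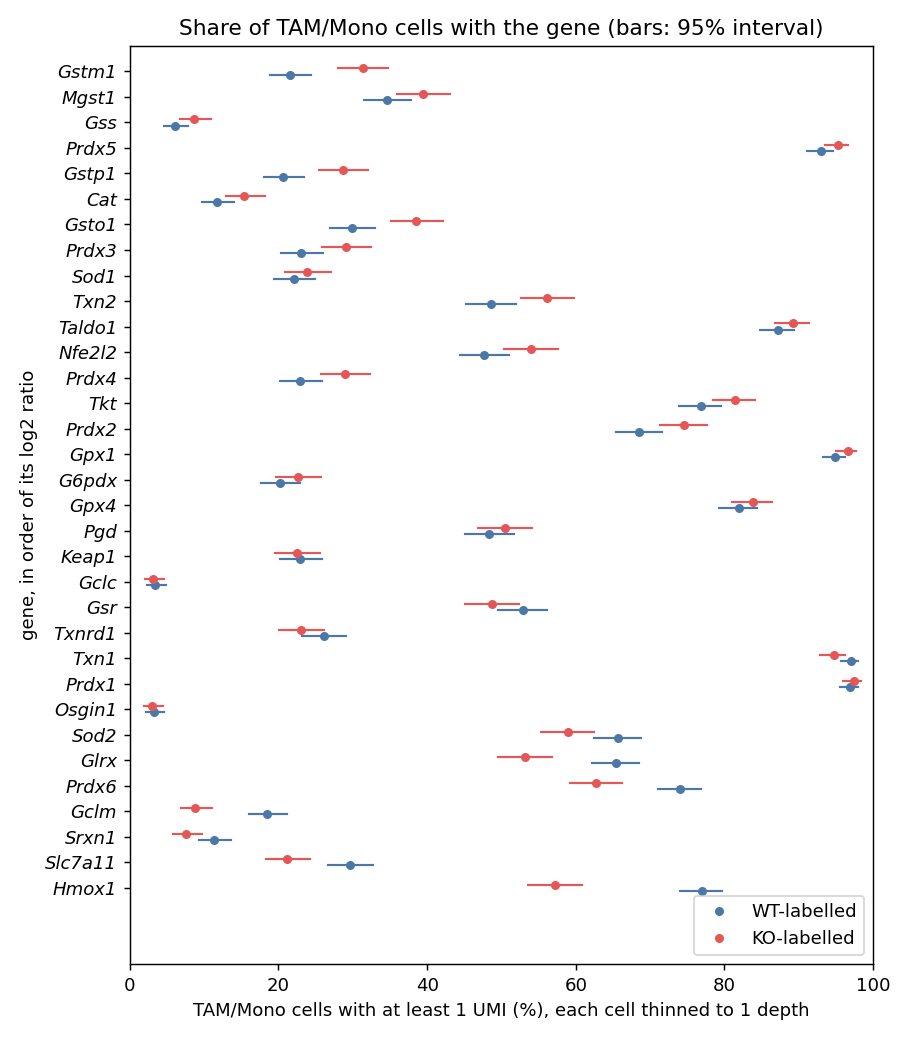
Percent of TAM/Mono cells with at least 1 UMI of each member (Fth1 and Nqo1 not drawn) after thinning each cell to 5800 UMIs, for the library labelled WT and the library labelled KO, with 95% Clopper-Pearson intervals. Hmox1, in the lowest row, lies at 76.9% and 57.2%, and Gstm1, in the highest, at 21.5% and 31.3%.

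To compare the classes at 1 depth, all classes were thinned to 2900 UMIs, below the smallest cell. Hmox1 was then seen in 64.5% and 41.2% of TAM/Mono cells, 12.7% and 4.85% of T cells, 9.52% and 4.48% of NK cells and 10.5% and 5.82% of DCs (library labelled WT first). The median depth before thinning was 10372 and 8850 UMIs in TAM/Mono cells and 9983.5 and 4847.5 in T cells. Slc7a11 was in 20.1% and 13.7% of TAM/Mono cells against 0.578% and 0.359% of T cells, and Mgst1 in 21.9% and 32.0% against 0.482% and 0.539%. Slc7a11 and Mgst1 thus stayed near 0 in T cells, while Hmox1 was at a like low share in T cells, NK cells and DCs of each library. A share of that kind in lymphocytes can be background from free RNA, which was not tested, and it is not read as expression.

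T cells numbered 1038 and 1114. Most came from clusters 2 (Cd8a, Lag3, Cxcr6; 32.8% of T cells) and 5 (cell cycle genes; 26.2%) in the library labelled WT, and from clusters 1 (Dapl1, Lef1, Tcf7; 37.3%) and 7 (Klra7; 21.0%) in the library labelled KO. Of the 31 members with 100 UMIs, Hmox1, Gclm, Srxn1 and Gstm1 were at least 1.5-fold lower in the library labelled KO, where 6.66% of 8556 genes were, and Nfe2l2 was higher, where 4.71% were. The median log2 ratio was -0.14, against -0.06 over all genes tested. Intervals lay below 0 for 14 members, as for 27.6% of all genes tested, above 0 for 2, as for 14.5%, and held 0 for 15.

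Gclm had 370 UMIs in T cells of the library labelled WT and 100 in those of the library labelled KO, or 28.0 and 11.9 CPM, a log2 ratio of -1.23 (-1.57 to -0.92). The ratio was at -0.87 or lower in each of the 5 T cell clusters, and 4 of the 5 intervals lay below 0. Its level per 100 UMIs of 8 myeloid genes was 5.97 and 2.23 in T cells against 0.344 and 0.123 in TAM/Mono cells. The source of the Gclm UMIs in T cells was not tested. With the mixed cells left out the log2 ratio of Gclm was -1.27.
Srxn1 had 107 and 31 UMIs, or 8.11 and 3.68 CPM, a log2 ratio of -1.12 (-1.76 to -0.55), and -0.70 without the mixed cells. By T cell cluster, 1 of the 5 intervals lay below 0 (cluster 5) and 4 held 0.

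Hmox1 in T cells had 949 and 221 UMIs, or 71.9 and 26.3 CPM, a log2 ratio of -1.45 (-1.67 to -1.24). One cell of cluster 5 held 160 of the 949 UMIs, and the 10 highest cells held 41.7% and 31.2%. Per 100 myeloid UMIs the level was 15.3 and 4.93 in T cells, 11.4 and 3.61 in TAM/Mono cells and 10.7 and 4.13 in NK cells and 3.86 and 1.77 in DCs (library labelled WT first). Cells with RNA of both types made up 31.8% and 15.3% of T cells, and without them the log2 ratio was -0.96. By T cell cluster the ratio was -2.99 in cluster 1 (194 and 24.2 CPM) and between -1.32 and -0.73 in the other 4, with 4 of the 5 intervals below 0. In cluster 1 a single cell of the library labelled WT held 133 of its 182 Hmox1 UMIs, so that value rests on 1 cell. The neutrophil genes summed to 233 and 72.5 CPM in T cells, with 12 of 12 and 11 of 12 seen (Ly6g at 0 in the library labelled KO). Summed CPM of the 5 erythroid genes measured was 1286 and 2153 and of the 8 melanoma genes 117 and 166, all with UMIs in both libraries. The share of T cells with such a UMI went the other way, at 17.8% and 11.04% for erythroid and 16.4% and 9.52% for melanoma genes (library labelled WT first). By T cell cluster, the highest melanoma level was in cluster 5 in the library labelled WT, at 237 CPM with 1 cell holding at least 20 melanoma UMIs, and in cluster 1 in the library labelled KO, at 567 CPM with 2 such cells. Without cells holding a melanoma UMI the log2 ratio of Hmox1 was -1.02 and that of Gclm -1.25. The part of neutrophil RNA in these ratios was not tested.

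Gstm1 and Nfe2l2 did not hold up in T cells. Gstm1 had 85 and 33 UMIs, or 6.44 and 3.92 CPM (log2 -0.70, -1.34 to -0.12). Of these, 63.5% and 45.5% lay in the 10 highest cells, and its log2 ratio was 0.28 when cells with any melanoma UMI were left out. Nfe2l2 was at 13.9 and 20.8 CPM on 183 and 175 UMIs (log2 0.59, 0.28 to 0.89), right at the threshold. Within T cell clusters its log2 ratio was -0.62 in cluster 1 (57.6 and 37.5 CPM), 0.65 in cluster 2, -0.55 in cluster 5, 0.74 in cluster 7 and -0.04 in the Foxp3 cluster 8. It was most abundant in cluster 1, the cluster that made up 37.3% of T cells in the library labelled KO and 14.9% in the other, and with 1 mix of clusters the log2 ratio was -0.19.
Keap1 was at 47.7 and 38.7 CPM (log2 -0.30, -0.50 to -0.10), but its interval held 0 in each of the 5 T cell clusters. Other abundant members were lower in T cells of the library labelled KO by under 1.5-fold: Gsr (log2 -0.51), Prdx1 (542 and 400 CPM, log2 -0.44), Txn1 (1006 and 770 CPM, log2 -0.39) and Fth1 (2227 and 1757 CPM, log2 -0.34). Within the 5 clusters, intervals lay below 0 in 5 for Fth1, 4 for Prdx1, 2 for Txn1 and 1 for Gsr. Fth1 and Prdx1 were furthest from 0 in cluster 1 (log2 -1.53 and -1.20) and nearest to it at -0.18 and -0.12. In T cells of the library labelled WT, the highest cell held 2523 of 29394 Fth1 UMIs, 395 of 7160 Prdx1 UMIs and 170 of 13281 Txn1 UMIs. How far single cells set these intervals was not tested. For Txn1 the log2 ratio was -0.02 in cluster 2 (1005 and 991 CPM) and -0.0002 in cluster 5. Gpx1 was higher (log2 0.16), and Prdx6, lower in TAM/Mono cells, was at 185 and 191 CPM here with an interval that held 0.

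**Figure D5:**
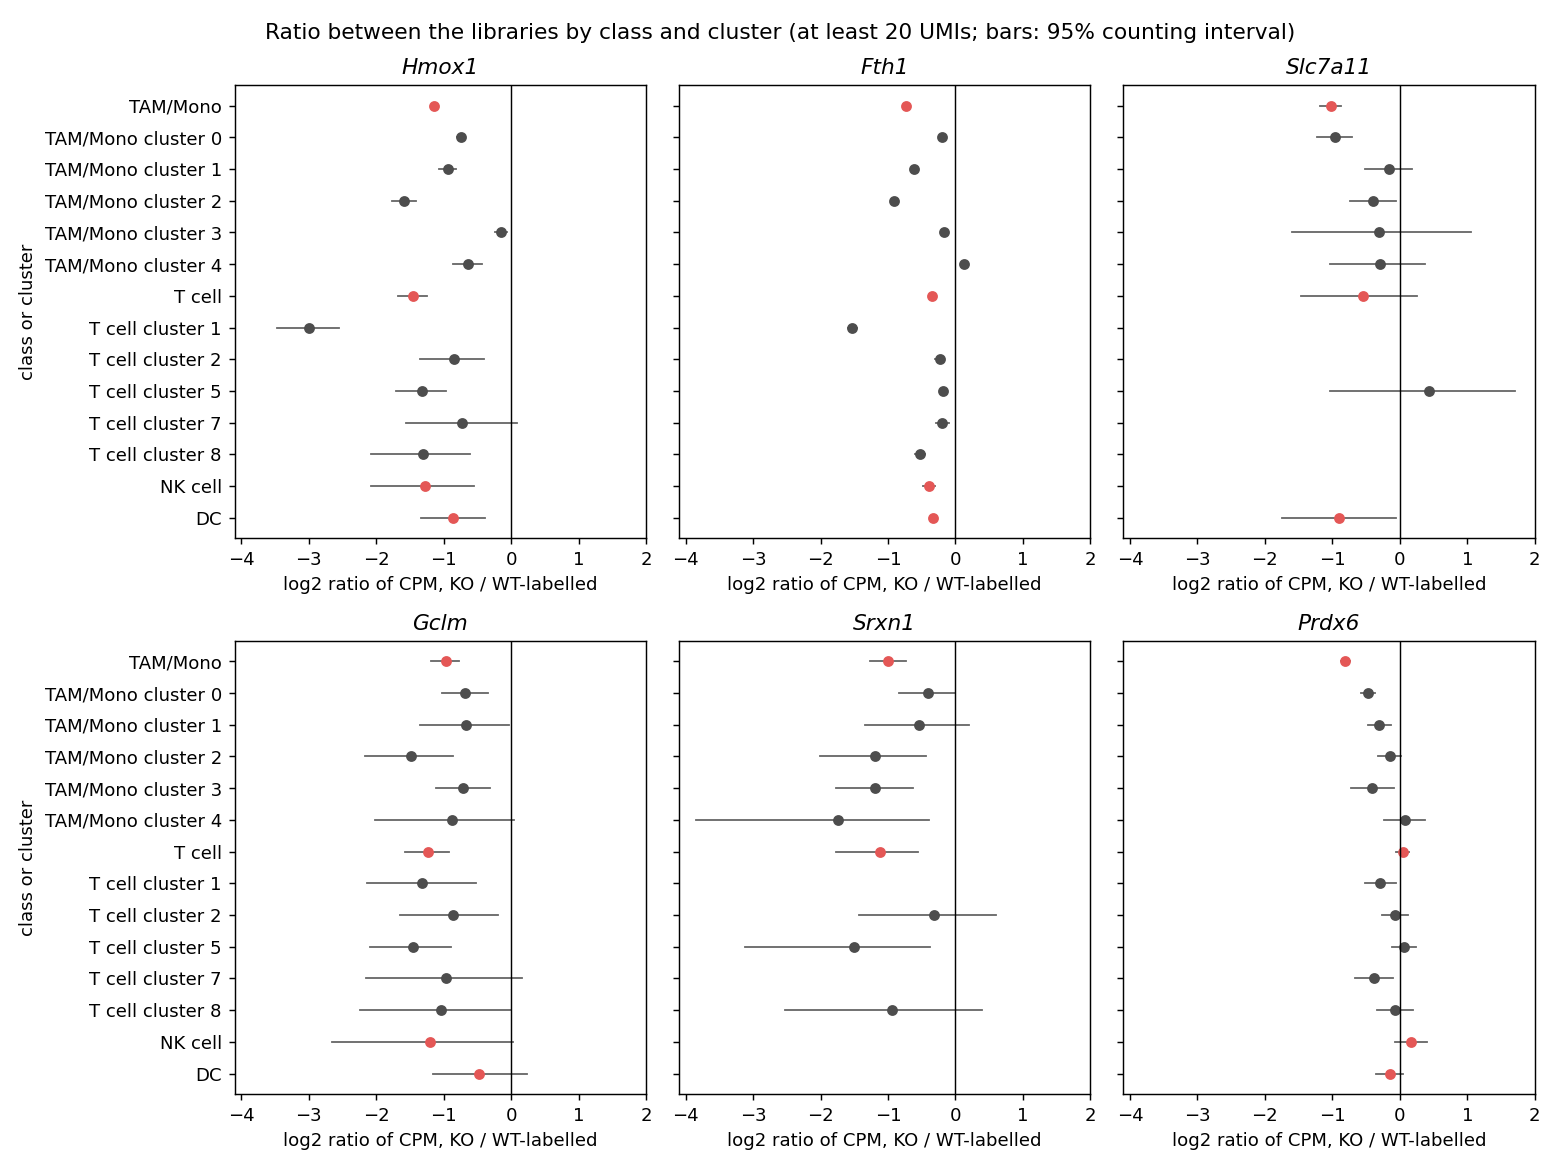
Log2 ratio, library labelled KO over library labelled WT, of the 6 members past 1.5-fold in TAM/Mono cells, in the TAM/Mono, T cell, NK cell and DC classes (red) and within the clusters of the TAM/Mono and T cell classes (dark grey), for points with at least 20 UMIs, with 95% counting intervals. Hmox1 lies below 0 in each point drawn for TAM/Mono clusters, from -1.58 to -0.15, and Fth1 lies below 0 in each point but TAM/Mono cluster 4.

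NK cells numbered 189 and 268 and DCs 133 and 292, so fewer members could be compared. In NK cells 2 of 19 members were at least 1.5-fold lower in the library labelled KO, where 4.09% of 2615 genes were, and none was higher, where 3.17% were. These were Glrx, at 106 and 59 UMIs (90.9 and 48.0 CPM, log2 -0.92, -1.41 to -0.45), and Pgd, at 71 and 45 UMIs (60.9 and 36.6 CPM, log2 -0.73, -1.31 to -0.18). Hmox1 had 73 UMIs in NK cells, below the minimum, and stood at 43.8 and 17.9 CPM.
In DCs 2 of 26 members were lower, where 6.52% of 5212 genes were, and none was higher, where 2.9% were. Hmox1 was at 37.4 and 20.5 CPM on 75 and 83 UMIs (log2 -0.87, -1.33 to -0.39), and Gsr at 39.9 and 23.2 CPM on 80 and 94 UMIs (log2 -0.78, -1.22 to -0.33). Nfe2l2 was at 41.3 and 54.4 CPM (log2 0.39, 0.02 to 0.78). Neutrophil RNA also differed between the libraries in these classes. It was at 130 and 17.9 CPM in NK cells (9 and 4 of 12 genes seen, S100a9 at 0 in the library labelled KO). In DCs it was at 121 and 15.6 CPM (11 and 10 of 12 seen, Ly6g at 0 in both). Its part in the ratios was not tested.

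The rest of the pathway, 54 other NRF2 and redox genes, was described the same way. In TAM/Mono cells 3 of the 37 with 100 UMIs were at least 1.5-fold higher in the library labelled KO, namely Cbr3 (4.58 and 7.66 CPM, log2 0.74), Mgst3 (19.97 and 30.7, log2 0.62) and Sesn1 (8.07 and 13.1, log2 0.70). Mafg, a small MAF protein that pairs with NRF2 (39.4 and 25.5 CPM, log2 -0.63), and Aifm2 (11.6 and 6.70, log2 -0.78), a membrane enzyme that limits lipid peroxidation, were lower. The median over the 37 was 0.02, and the shares for all genes are those given above (3.99% higher, 4.91% lower). In T cells 4 of 33 were higher (Txnip, Cbr1, Sesn1 and Sesn3), against 4.71% of all genes tested, and Mafg was lower, against 6.66%. None of 12 was past 1.5-fold in NK cells (3.17% of all genes higher, 4.09% lower) and none of 25 in DCs (2.9% and 6.52%).
Of 11 genes for NADPH oxidase and monoamine oxidase, the enzymes that make superoxide or hydrogen peroxide, 7 could be compared in TAM/Mono cells. Rac1, a small GTPase that activates the oxidase, was at 525 and 221 CPM (log2 -1.25), and Ncf4, a cytosolic oxidase subunit, at 268 and 177 (log2 -0.60). Cybb, the catalytic subunit, was higher in the library labelled KO at 258 and 306 CPM (log2 0.25). Rac1 was lower in each class compared, with log2 ratios of -1.50 in T cells, -1.59 in NK cells and -1.39 in DCs. The light chain of ferritin, Ftl1, followed Fth1 in direction at 20300 and 15810 CPM in TAM/Mono cells (log2 -0.36).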

How the data were processed

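Single-cell RNA-seq of sorted CD45.2+ TIIs was made with a 10x 3′ V2 UMI kit from 10 pooled tumors per genotype, with 10000 cells loaded per library. Per the labels and the study's methods, the authors used Cell Ranger with mm10, joined both libraries and normalised with Seurat; versions are not given in the sources used here. The deposited values are on a natural log scale, ln(1 + UMIs scaled to 10000 per cell). They were turned back into UMIs, and 100% of values above 0 came out whole (tolerance 0.01). The study's own filter of cells had been applied, and all 5022 cells were kept.

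Cells were clustered with Seurat 5.3.0 (R 4.3.3) on variable genes without the members, with depth regressed out, 13 PCs and resolution 0.8. The 15 clusters were named from marker lists, and TAM/Mono cells were re-clustered at resolution 0.3. No doublet caller was run, and cells with at least 3 UMIs of Cd3 genes and 5 of 8 myeloid genes were counted as mixed. UMIs were summed per class and library with Python 3.11.15, numpy 2.4.6 and scipy 1.17.1, and figures drawn with matplotlib 3.10.9. CPM carry exact Poisson intervals, shares Clopper-Pearson intervals, and log2 ratios (0.5 UMIs added to each library) exact conditional binomial intervals, all at 95%. A gene was compared with at least 100 UMIs in a class over both libraries and called past the fold at 1.5. Code was tested on simulated counts.

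All 35 members are named. Values in full are given for those past the fold in TAM/Mono or T cells, those at least 4-fold over the next class, Nfe2l2 and Keap1. Other values named, including those within clusters, were chosen after they were seen. The members and lists were chosen with earlier results of these data known. Alternatives covered clustering, class definition, mixed or tumor-RNA cells, depth, weights, scaling, cluster mix, minimum and fold.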

Additional observations from a re-analysis of the deposited data

How the results depend on the processing

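No paired analysis was possible because each genotype had 1 library, and for the same reason no library could be left out. A change of the minimum or the fold alone leaves each log2 ratio as it was, so no direction could turn under it in any class. Under 18 alternatives and 1 chosen after seeing the data (TAM/Mono cluster 4 left out), the 6 lower members in TAM/Mono cells kept their direction. Their log2 ratios ranged from -1.38 to -0.69 for Hmox1, -0.90 to -0.26 for Fth1, -1.30 to -0.65 for Slc7a11, -1.43 to -0.79 for Gclm, -1.08 to -0.75 for Srxn1 and -0.93 to -0.36 for Prdx6. Glrx joined them under 6 alternatives, for 7 lower members or, with cells of equal weight, 8 with Osgin1. The median of the members was -0.06 with 1 mix of clusters and between 0.05 and 0.15 otherwise. A fold of 2 left 2 of them (Hmox1 and Slc7a11). One member was past the fold and higher when cells were thinned (Gss) and with a minimum of 1 UMI (Nqo1).

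In T cells, Hmox1 (-1.56 to -0.96), Gclm (-1.45 to -1.01) and Srxn1 (-1.82 to -0.70) kept their direction. Gstm1 turned to 0.23 with classes gated on marker UMIs and 0.28 without cells with a melanoma UMI, and Nfe2l2 turned to -0.19 with 1 mix of clusters; the cause was not tested. The higher count in T cells was 0 with the members kept in the clustering, at resolution 0.4 or 1.2, with 20 PCs, without mixed cells or cells with a melanoma UMI, with cells of equal weight, with 1 mix of clusters and at fold 2. The lower count was 2 with gated classes, without mixed cells, with thinning and with a minimum of 200.

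In NK cells the higher count was 1 with gated classes or a minimum of 50 and 2 with a minimum of 1. The lower count there was 1 without cells with a melanoma or erythroid UMI, 0 with thinning, a minimum of 200 or fold 2, 4 with a minimum of 50 and 8 with a minimum of 1. In DCs the higher count was 1 without mixed cells or cells with an erythroid UMI and 2 with a minimum of 1. The lower count was 1 at resolution 0.4 or without mixed cells, 0 at resolution 1.2, with gated classes, thinning, a minimum of 200 or fold 2, and 6 with a minimum of 1. The 1 mix of clusters was not run for NK cells, which formed a single cluster. Counts in NK cells and DCs rest on few UMIs.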
